A study of Mus musculus with 12 samples.

Results

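The clock output factors Dbp, Tef, Hlf, Nfil3, Bhlhe40 and Bhlhe41 are transcription factors that pass the timing of the circadian clock on to other genes. They were chosen by name as the PAR bZIP factors, their repressor Nfil3 and the DEC factors, with earlier results of these data known. All 6 of 6 were found among the 18962 genes of the deposited table. RNA was measured in wild-type CBA/N mouse brain, an inbred laboratory strain, with cerebellum and olfactory bulb removed, collected at about 13 h on the clock. The 12 libraries form 4 groups of 3: male winter, male summer, female winter and female summer. For 4 weeks, winter mice were kept at 10 °C with 8 h of light and 16 h of darkness a day, and summer mice at 30 °C with 16 h of light and 8 h of darkness. The groups were read from letter codes that the labels do not spell out, and neither the animals' age nor the hour of lights-on is stated in them. Since day length and temperature differed jointly, the 2 cannot be told apart. With 1 clock time, a shifted phase of a rhythm and a changed mean level cannot be told apart either. Since the hours of light differed, that clock time cannot lie equally far from both lights-on and lights-off in winter and summer. Nothing in the labels ties each library to its own animal, and p-values then reflect only the spread among these libraries, possibly a technical one.

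The circadian clock is a feedback loop in which ARNTL and CLOCK switch on genes through DNA elements called E-boxes, and PER and CRY proteins switch ARNTL and CLOCK off again. DBP, TEF and HLF are activators of the proline and acidic amino acid-rich basic leucine zipper (PAR bZIP) family. They bind an element called the D-box, and NFIL3 (E4BP4) binds the same element as a repressor. BHLHE40 (DEC1) and BHLHE41 (DEC2) are basic helix-loop-helix repressors that act at E-boxes and so feed back on the clock. In mice, loss of the PAR bZIP activators together leads to seizures and low pyridoxal phosphate in the brain, and BHLHE41 is known for its part in sleep length.

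The 6 genes lie apart in the genome, by the RefSeq annotation of GRCm38.p6. Dbp spans chr7:45705100-45710203, Tef chr15:81802673-81826863, Hlf chr11:90336535-90390917 and Nfil3 chr13:52967209-52982878. Bhlhe40 spans chr6:108660629-108666925 and Bhlhe41 chr6:145858243-145865420, on the same chromosome but not side by side. Promoter windows of 250 bases before to 50 bases after an annotated start were given for 5 of the 6 genes, 6 windows in all. Both strands were searched for the E-box CACGTG, the E-prime box CACGTT, the D-boxes TTATGTAA and TTACGTAA, the ROR elements TAGGTCA and TGGGTCA, and the cAMP response element TGACGTCA. No 2 matches overlapped in these windows. The 4 windows below are shown for Dbp and Bhlhe41, which had the largest season differences of the 6 genes on the log2(FPKM + 1) scale, and for Tef and Nfil3, which hold an E-box and a ROR element. They run 5′ to 3′ on the gene's strand, and capitals mark a match to a searched element. The Dbp window is chr7:45704997-45705296 (plus strand), that of Tef chr15:81802423-81802722 (plus), that of Nfil3 chr13:52980990-52981289 (minus) and that of Bhlhe41 chr6:145865371-145865670 (minus), all from RefSeq, GRCm38.p6.
Dbp: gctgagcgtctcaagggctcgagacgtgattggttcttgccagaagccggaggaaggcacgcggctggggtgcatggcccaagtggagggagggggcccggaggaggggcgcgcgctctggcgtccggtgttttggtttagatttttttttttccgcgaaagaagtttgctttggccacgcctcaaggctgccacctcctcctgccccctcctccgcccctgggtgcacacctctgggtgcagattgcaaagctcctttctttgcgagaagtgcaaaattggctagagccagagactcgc
Tef: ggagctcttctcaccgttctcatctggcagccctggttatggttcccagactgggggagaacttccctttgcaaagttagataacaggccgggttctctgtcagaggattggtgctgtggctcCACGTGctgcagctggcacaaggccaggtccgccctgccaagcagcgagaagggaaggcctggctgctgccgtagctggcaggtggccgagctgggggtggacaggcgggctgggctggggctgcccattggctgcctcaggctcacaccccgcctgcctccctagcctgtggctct
Nfil3: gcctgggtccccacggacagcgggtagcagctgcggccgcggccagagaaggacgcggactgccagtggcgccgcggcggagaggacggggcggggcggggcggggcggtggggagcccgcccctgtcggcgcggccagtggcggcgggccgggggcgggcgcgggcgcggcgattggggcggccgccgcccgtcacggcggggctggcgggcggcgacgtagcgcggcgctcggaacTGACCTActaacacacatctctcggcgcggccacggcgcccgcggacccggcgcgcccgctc
Bhlhe41: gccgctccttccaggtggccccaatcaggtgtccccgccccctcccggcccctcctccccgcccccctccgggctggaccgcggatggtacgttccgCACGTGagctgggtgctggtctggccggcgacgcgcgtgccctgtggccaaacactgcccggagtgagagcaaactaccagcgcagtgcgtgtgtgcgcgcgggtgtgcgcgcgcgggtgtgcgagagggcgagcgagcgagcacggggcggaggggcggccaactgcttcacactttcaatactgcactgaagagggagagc

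An E-box stood in the Bhlhe41 window, its first base at -153 from the start, in the Tef window shown at -127 and in a second Tef window at -138. The letters CACGTG were found in 7.15% of the 32851 promoter windows of the table. Among the 13493 windows of the genes tested below, to which the 6 genes belong, the share was 9.66%. The Nfil3 window held the ROR element TAGGTCA, read on the other strand as the capitals show, at -12, and 2.61% of all windows held it. The Hlf window, which is not printed, held the cAMP response element TGACGTCA at -9, found in 1.79% of all windows. None of the searched letters occurred in the Dbp window, and no D-box occurred in any of the 6. The D-box letters were rare in all windows, at 0.938% for TTATGTAA and 0.119% for TTACGTAA. CACGTT was found in 4.68% and TGGGTCA in 3.98% of all windows. Among windows of the tested genes the shares were 1.72% for TAGGTCA, 2.96% for TGACGTCA, 0.534% for TTATGTAA and 0.178% for TTACGTAA. They were 5.14% for CACGTT and 3.31% for TGGGTCA. A match is a string of letters and not a shown binding site, and the Dbp and Nfil3 windows begin from a start inside the outermost gene end.

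All 6 genes were read in every library, and their levels differed widely. Values are FPKM, fragment numbers corrected for transcript length and library size, so levels of different genes can be compared. Tef was highest, with a mean of 104.0 FPKM over 12 libraries, above 96.8% of all genes. Dbp followed at 53.5 FPKM, then Bhlhe40 at 39.7 and Hlf at 38.2, with Bhlhe41 at 7.67 and Nfil3 at 3.70. Tef exceeded Dbp in 12 of 12 libraries, and Dbp exceeded Bhlhe40 in 11 of 12. Bhlhe40 and Hlf could not be put in order, since Bhlhe40 was the higher in 6 of 12 libraries. Hlf stood above Bhlhe41 in 12 of 12 libraries, by 4.39 to 5.90 times, and Bhlhe41 above Nfil3 in 12 of 12, by 1.09 to 3.19 times. The Nfil3 level was above 44.9% of all genes, so the repressor was the scarcest of the 6.

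**Figure D1:**
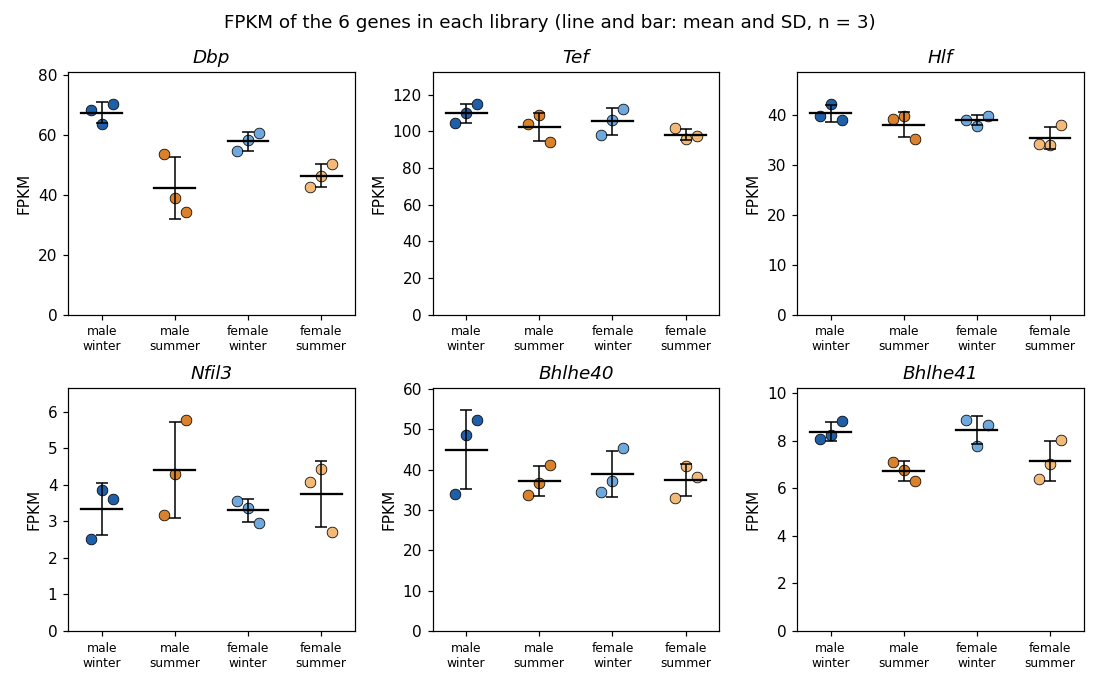
FPKM (vertical axes from 0) of the 6 genes in the 4 groups on the horizontal axis; points are libraries, and lines and bars are the mean and SD of 3 libraries. Dbp is the gene whose 6 winter libraries (54.6 to 70.5 FPKM) all lie above its 6 summer libraries (34.2 to 53.8 FPKM).

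Dbp, a D-box activator whose RNA is known to swing widely over the day, showed the largest difference between seasons of the 6. It read 68.4, 63.6 and 70.5 FPKM in the male winter libraries and 53.8, 39.0 and 34.2 FPKM in the male summer libraries. In females it read 54.6, 58.3 and 60.8 FPKM in winter and 42.5, 46.4 and 50.4 FPKM in summer. Every winter library lay above every summer library, in each sex and over both sexes, and the closest pair was female winter replicate 1 and male summer replicate 1. Over both sexes the mean was 62.7 ± 6.04 FPKM (SD, n = 6) in winter and 44.4 ± 7.28 FPKM (SD, n = 6) in summer. Winter minus summer came to 0.50 ± 0.086 (SE) on the log2(FPKM + 1) scale, with a 95% interval of 0.32 to 0.68, or 1.41-fold. The scale understates changes of low genes. By limma, whose p-values were adjusted by Benjamini-Hochberg over all 13071 tested genes, the adjusted p was 0.280, so Dbp did not pass the threshold of 0.05. Its unadjusted p of 4.29e-05 was the second smallest, at rank 2 of 13071. An exact two-sided permutation of the season labels within each sex gave p = 0.005 for Dbp, the smallest that its 400 assignments can give. That value is not adjusted for the 13071 genes.

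The male difference of Dbp was 0.69 ± 0.12 (SE) in log2, with an adjusted p of 0.313 by limma, and the female difference was 0.31 ± 0.12 (SE), with an adjusted p of 1. Within 1 sex the exact permutation allows no p below 0.1, and Dbp reached 0.1 in both sexes. The female minus male season effect was -0.37 ± 0.17 (SE), with an unadjusted limma p of 0.048 and an adjusted p of 0.999, so a difference between the sexes was not shown. The male summer libraries of Dbp were the most spread of the 4 groups, at an SD of 10.2 FPKM. Without male summer replicate 1, which read 53.8 FPKM, the season difference over both sexes was 0.59 with an adjusted limma p of 0.00129, and the male difference was 0.87 with an adjusted p of 0.00153. That library had the highest Dbp of the summer libraries. With it left out Dbp passed the threshold, and with all 12 libraries Dbp did not. Over the 12 fits leaving out 1 library each, the adjusted limma p of Dbp over both sexes ran from 0.00129 to 0.856.

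Tef, the second activator, read 104, 110 and 115 FPKM in male winter and 104, 109 and 94.2 FPKM in male summer. The female libraries read 98.1, 106 and 112 FPKM in winter and 102, 95.8 and 97.4 FPKM in summer. The groups overlapped in both sexes, and 5 of 6 winter libraries lay above the median of all 12. The season difference of Tef was 0.10 ± 0.048 (SE) in log2, with a 95% interval of -0.0021 to 0.20 and an adjusted p of 0.997 by limma. It was 0.10 in each sex. The exact permutation gave p = 0.045 for Tef, a value that is not adjusted for the 13071 genes.

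Hlf, the third activator, was the steadiest of the 6, with a residual SD above that of 22.9% of tested genes. Its male libraries read 39.9, 42.3 and 38.9 FPKM in winter and 39.1, 39.9 and 35.1 FPKM in summer. Its female libraries read 38.9, 37.9 and 39.9 FPKM in winter and 34.2, 33.9 and 38.0 FPKM in summer. Winter and summer overlapped in each sex. The season difference of Hlf was 0.11 ± 0.045 (SE) in log2, with a 95% interval of 0.01 to 0.21, an adjusted limma p of 0.997 and an exact permutation p of 0.055. It was 0.08 in males and 0.13 in females.

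Nfil3, the repressor at the D-box, was the only one of the 6 whose mean was lower in winter. The male libraries of Nfil3 read 2.53, 3.85 and 3.62 FPKM in winter and 3.17, 4.29 and 5.78 FPKM in summer. The female libraries read 3.56, 3.38 and 2.96 FPKM in winter and 4.08, 4.43 and 2.72 FPKM in summer. The groups overlapped, with the highest value in male summer replicate 3 and the lowest in male winter replicate 1. The season difference of Nfil3 was -0.22 ± 0.12 (SE) in log2, with a 95% interval of -0.48 to 0.05, an adjusted limma p of 0.997 and an exact permutation p of 0.175. It was -0.31 in males and -0.13 in females. Nfil3 also varied most between libraries of 1 group, with a residual SD above that of 98.3% of tested genes.

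The 2 sides of the D-box pair were set against each other within each library, as a description with no test. The ratio of Dbp to Nfil3 in FPKM ran from 15.3 to 27.0 in the 6 winter libraries, with a median of 18.4. In the 6 summer libraries it ran from 5.92 to 18.5, with a median of 10.45. The seasons overlapped, through male summer replicate 1 and female summer replicate 3. Winter minus summer of the log2 ratio was 0.78 as the mean of the sexes, 1.085 in males and 0.475 in females. With Tef and Hlf added to Dbp, the ratio to Nfil3 ran from 53.8 to 84.1 in winter and from 28.3 to 68.3 in summer, a log2 difference of 0.48.

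Dbp and Nfil3 also varied against each other between libraries of the same group. Over the deviations of 12 libraries from their group means, Pearson's r was -0.79 (permutation p = 0.0013, adjusted 0.0189 over 15 pairs of members). Spearman's rho was -0.76 (permutation p = 0.0055, adjusted 0.0831). Without the 2 libraries farthest from the median of Dbp, r was -0.59. The deviations share 4 group means and each library's scaling, so they are not fully independent. The permutation shuffled all 12 deviations freely, although only 8 degrees of freedom remain after the group means. Its p-values for deviations are therefore too small, and whether this pair would pass a test that allows for this was not examined. Of the other pairs, none had an adjusted p under 0.05 for these deviations. Bhlhe41 and Dbp had r = 0.58 and rho = 0.70 (permutation p = 0.0472 and 0.0145, adjusted 0.177 and 0.105), and r = 0.56 without the 2 farthest libraries.

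**Figure D2:**
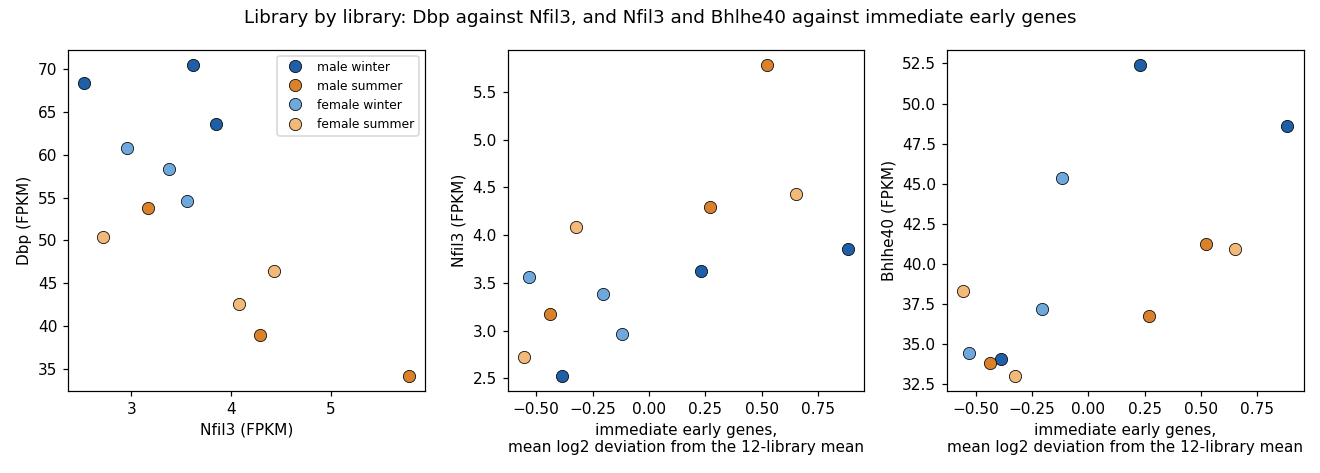
Left, Dbp (vertical, FPKM) against Nfil3 (horizontal, FPKM); middle and right, Nfil3 and Bhlhe40 (vertical, FPKM) against the mean log2 deviation of 12 immediate early genes (horizontal); each point is 1 of 12 libraries, coloured by group. Male summer replicate 3 has the highest Nfil3 (5.78 FPKM) and the lowest Dbp (34.2 FPKM), and the vertical axes do not start at 0.

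Bhlhe41, the scarcer of the DEC repressors, had the second largest winter excess of the 6. It read 8.07, 8.22 and 8.84 FPKM in male winter and 7.10, 6.76 and 6.28 FPKM in male summer. In females Bhlhe41 read 8.87, 7.76 and 8.67 FPKM in winter and 6.40, 7.00 and 8.03 FPKM in summer. The male seasons did not overlap, and in females summer replicate 3 lay above winter replicate 2. The season difference of Bhlhe41 was 0.25 ± 0.057 (SE) in log2, with a 95% interval of 0.13 to 0.37, or 1.19-fold. Its limma p of 0.000691 ranked 17 of 13071 and its adjusted p was 0.531, so it did not pass. The exact permutation gave p = 0.01, not adjusted for the 13071 genes. The difference was 0.28 ± 0.081 (SE) in males and 0.22 ± 0.081 (SE) in females, and the interaction of -0.07 had an adjusted p of 0.999.

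Bhlhe40, the more abundant DEC repressor, read 34.1, 48.6 and 52.4 FPKM in male winter and 33.8, 36.8 and 41.3 FPKM in male summer. The female libraries of Bhlhe40 read 34.5, 37.2 and 45.4 FPKM in winter and 33.05, 40.9 and 38.3 FPKM in summer. The groups overlapped, and 3 of 6 winter libraries lay above the median of all 12. The season difference of Bhlhe40 was 0.15 ± 0.10 (SE) in log2, with a 95% interval of -0.06 to 0.36, an adjusted limma p of 0.997 and an exact permutation p of 0.255. It was 0.25 in males and 0.05 in females. Its residual SD was above that of 96.5% of tested genes. The ratio of Bhlhe40 to Bhlhe41 was 3.89 to 5.93 in winter and 4.77 to 6.57 in summer.

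**Figure D3:**
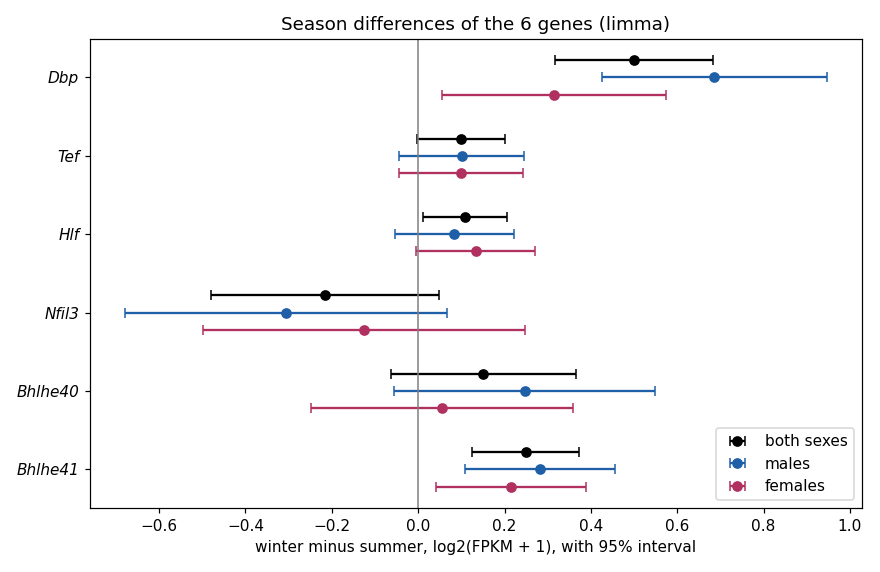
Winter minus summer on the log2(FPKM + 1) scale (horizontal axis) for the 6 genes (vertical axis), with 95% intervals from limma, for both sexes together and for each sex. Over both sexes the intervals of Dbp (0.32 to 0.68), Bhlhe41 (0.13 to 0.37) and Hlf (0.01 to 0.21) lie above 0, and none of the 6 passed the adjusted threshold.

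As a set of named genes, 0 of 6 passed the adjusted threshold for season over both sexes, where 0.00765% of tested genes did, which is 1 gene. That gene was Mt2, a metallothionein, at 0.38 ± 0.042 (SE) in log2 and an adjusted limma p of 0.00352, named here after its value was seen. In males the share was also 0.00765%, in females 0.0% and for the interaction 0.0%, and 0 of 6 members were called in each. At an unadjusted limma p under 0.05, 3 of 6 members were counted over both sexes (Dbp, Hlf and Bhlhe41), 2 in males and 2 in females (Dbp and Bhlhe41), against 4.88%, 5.01% and 1.74% of all tested genes. Of the 6 genes, 1 (Dbp) had all winter libraries above all summer libraries, which held for 0.115% of tested genes, and 0 had them all below, which held for 0.168%. Within males 2 of 6 (Dbp and Bhlhe41) were higher in winter without overlap, against 6.12% of tested genes, and 0 lower, against 6.53%. Within females 1 of 6 (Dbp) was higher without overlap, against 1.92%, and 0 lower, against 2.28%. The median season difference of the 6 was 0.13 in log2 with 5 positive, while over all tested genes the median was -0.00 and 47.9% were positive. The 6 were chosen with earlier results of these data known, so these shares describe them and do not test them as a set.

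Female minus male differences of the 6 were small and did not pass. They ran from -0.09 for Bhlhe40 and Nfil3 to 0.04 for Bhlhe41 in log2, with adjusted limma p-values of 0.507 to 0.891. Of all tested genes, 0.0612% were called for sex, and 0 of 6 members were.

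The upstream clock genes were taken from lists of the pathway. Among the E-box-driven repressors, the class switched on in the same way as Dbp, 7 of 8 were positive in winter minus summer, with a median of 0.15 in log2, and 0 of 8 were called. Ciart (Chrono), a repressor of ARNTL and CLOCK, had the largest value of the 8, 0.72 ± 0.13 (SE) in log2 with an adjusted limma p of 0.280. Ciart read 18.6, 18.0 and 15.8 FPKM in male winter, 13.4, 7.83 and 7.52 in male summer, 15.5, 13.25 and 19.5 in female winter, and 7.96, 11.5 and 11.6 in female summer. Its seasons overlapped over both sexes only through male summer replicate 1 and female winter replicate 2. Nr1d1 (REV-ERBα), a repressor at ROR elements, had 0.32 ± 0.091 (SE) and an adjusted p of 0.956. Its FPKM was 58.4 to 80.5 in winter and 38.8 to 60.6 in summer, so the seasons overlapped.

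The period genes and the others of that list were nearer to 0. The log2 season difference was 0.23 for Per1, 0.10 for Per2, 0.16 for Per3, 0.13 for Nr1d2, 0.04 for Cry2 and -0.02 for Cry1, each with an adjusted limma p of 0.997. Of the 4 core activators, 3 were negative, with a median of -0.065, and 0 were called. Arntl (BMAL1), the partner of CLOCK, read 9.69 to 11.3 FPKM in winter and 11.2 to 15.1 FPKM in summer. The seasons of Arntl overlapped through male summer replicate 1 and female winter replicate 1, at 11.2 and 11.3 FPKM. Its difference was -0.29 ± 0.067 (SE) in log2 with an adjusted p of 0.531, beside -0.07 for Clock and -0.06 for Npas2. The ROR receptors, which activate at the elements where Nr1d1 represses, were represented by Rora at 0.11 and Rorb at -0.02, neither of them called.

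**Figure D4:**
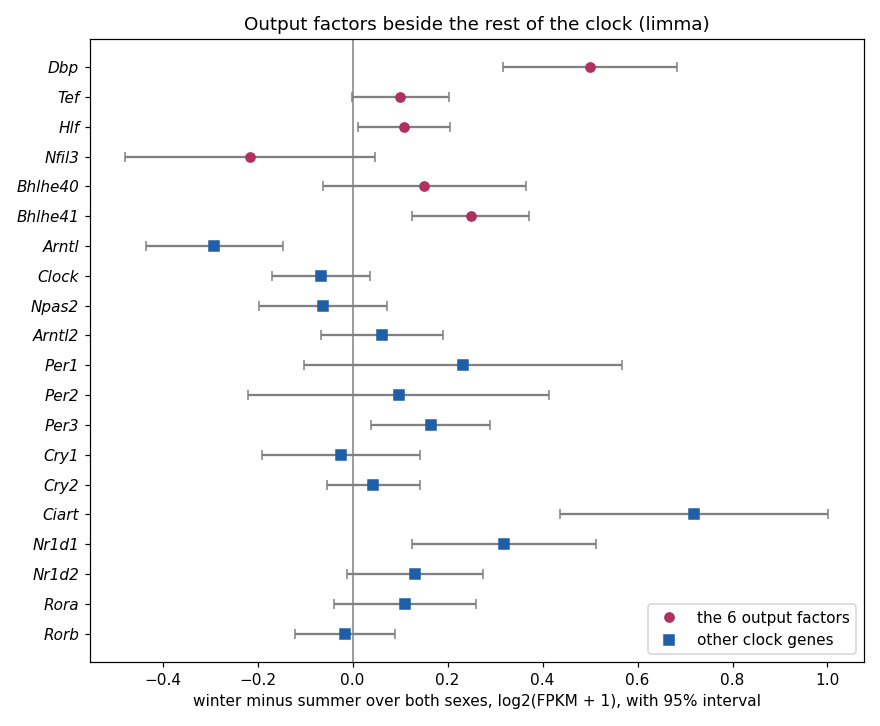
Winter minus summer over both sexes on the log2(FPKM + 1) scale (horizontal axis), with 95% intervals from limma, for the 6 output factors (circles) and 14 other clock genes (squares) on the vertical axis. Ciart (0.72), Dbp (0.50) and Nr1d1 (0.32) lie farthest above 0 and Arntl (-0.29) farthest below, and none passed the adjusted threshold.

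Genes that textbooks place under D-box control did not pass either. Of 14 listed, 13 were tested, 8 were positive and 0 were called, with a median of 0.08 in log2. This count is not separate from those above, since Per1, Per2, Per3, Cry1, Nr1d1, Nr1d2, Rora and Rorb are in both. Pdxk, pyridoxal kinase and a known PAR bZIP target in mouse brain, had -0.01 ± 0.042 (SE), with a 95% interval of -0.10 to 0.08. Gys2, the liver glycogen synthase, was at most 0.1 FPKM and was not tested. Of the 6 genes listed as repressed or bound by the DEC factors, 3 were positive and 0 were called, and Hcrt (orexin) had 0.02. Among them are Dbp itself and Per1, Arntl, Clock and Npas2, which were counted above. Of the clock kinases and ligases 1 of 7 was positive, with Btrc at -0.08 having the smallest p-value, and 0 were called.

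Relatives of the 6 by protein family were examined next. Of 5 C/EBP bZIP genes 2 passed the filter, Cebpa at 0.06 and Cebpg at -0.01. All 6 HES and HEY genes, the relatives of the DEC factors, were tested, 4 were positive and 0 were called, with Hes5 at -0.19 and Heyl at 0.12. Of 10 hypoxia targets, a class to which the DEC genes also belong, 5 were positive and 0 were called, with Ankrd37 at 0.20 and Pdk1 at -0.08.

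Bhlhe40 is also known as a gene induced by neuronal activity, so immediate early genes, which mark such activity, were read beside the 6. Of 12 immediate early genes 4 were positive for season and 0 were called, with Npas4 at -0.23 and Egr4 at 0.17 in log2 having the smallest p-values. In males 7 of 12 were positive (median 0.12) and in females 1 of 12 (median -0.17), against 48% and 48.3% of tested genes. Higher in females than in males were 0 of 12 (median -0.43), against 55.3% of tested genes. In each of these contrasts 0 were called. Fos varied strongly between libraries and read 3.10 to 17.95 FPKM in winter and 2.92 to 14.97 FPKM in summer, a difference of -0.04 in log2. Their mean log2 deviation ran from -0.555 in female summer replicate 3 to 0.88 in male winter replicate 2. Within groups, Nfil3 moved with this mean at r = 0.78 and rho = 0.72 (permutation p = 0.0028 and 0.0104, adjusted over the 6 genes 0.0167 and 0.0627), and r was 0.72 without the 2 farthest libraries. Bhlhe40 moved with it at r = 0.70 and rho = 0.66 (permutation p = 0.0125 and 0.0217, adjusted 0.0374 and 0.0651), and r was 0.59 without the 2 farthest. Dbp had r = -0.50 and rho = -0.46 (permutation p = 0.0968 and 0.134, adjusted 0.194 and 0.268). These permutations also shuffled the group-centred deviations freely, so the p-values are too small. Whether Nfil3 or Bhlhe40 would pass a test that allows for the group means was not examined. The part of the immediate early genes in the season differences was not tested.

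The genes whose levels followed each member most closely over the 12 libraries were named by Pearson's r of log2(FPKM + 1), the 5 highest of all tested genes, as a description. For Dbp they were Klhl40 (0.938), Tspan4 (0.936), Ciart (0.930), Sprtn (0.899) and Ighmbp2 (0.885), and within groups r was 0.718 to 0.832. For Bhlhe41 they were Ciart (0.874), Net1 (0.867), Pnpla7 (0.865), Kcna1 (0.853) and Utp15 (0.849). Within groups r was lower for these, at 0.604 for Ciart, 0.774 for Net1, 0.441 for Pnpla7, 0.718 for Kcna1 and 0.713 for Utp15. Ciart was in the sets of 5 of both Dbp and Bhlhe41, with within-group r of 0.797 and 0.604. For Bhlhe40 the 5 were Ankrd33b (0.889), Per2 (0.856), Camk1g (0.855), Mtf1 (0.852) and P3h1 (0.850), and Per2 within groups had 0.929. Both Bhlhe40 and Per2 were lowest in replicate 1 in 4 of 4 groups, and this r makes no allowance for that. For Nfil3 they were Oser1 (0.918), Grpel2 (0.902), Pcbp2 (0.891), Otud1 (0.866) and Eaf1 (0.864). For Tef they were Gata2 (0.935), Hexdc (0.909), Tctn3 (0.899), Plekha7 (0.880) and Ank (0.879), and for Hlf Gna13 (0.864), Nanos2 (0.791), Ephb4 (0.778), Ndc1 (0.767) and Zxdb (0.761). Within groups r was 0.853 to 0.941 for the Nfil3 set, 0.807 to 0.904 for the Tef set and 0.694 to 0.939 for the Hlf set. Some of the named genes were near the 1 FPKM needed for testing, with means of 1.45 for Klhl40, 1.34 for Gata2, 1.06 for Nanos2 and 1.34 for Ephb4. A maximum over so many genes is high in any such search, and the libraries share their scaling.

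The tested genes nearest to the 6 in the genome gave no season call. Sphk2 overlaps Dbp and had -0.15 ± 0.089 (SE) in log2, opposite in sign to Dbp, with an adjusted limma p of 0.997. The libraries keep strand, but no source used here says whether the counting used it. The nearest tested genes on each side, such as Car11 at 0.04 and Rpl18 at -0.11 beside Dbp, each had an adjusted limma p of 0.997. Their distances ran from 413 bases (Car11 from Dbp) to 349870 bases (Sptlc1 from Nfil3), and untested genes between were passed over.

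Library facts bear on these values as follows. FPKM sums ran from 358511 to 375041, read depth is unknown, and no counting error can be given. Transcript GC content trended with deviation most in female winter replicate 1 and female summer replicate 3 (Spearman -0.601 and -0.658). Without both, the Dbp difference was 0.55 with an adjusted limma p of 0.314. Other libraries trended the other way, such as female summer replicate 1 at 0.472, so leaving those out did not remove every such trend. In males the values were 0.433, 0.1 and 0.546 in winter and 0.05, 0.376 and -0.18 in summer. The part of GC content in the season differences was not tested. Male winter replicate 1 held more RNA of the cerebellum, whose 5 markers summed to 84.1 FPKM there and to 9.73 to 19.6 FPKM elsewhere, and without it the Dbp difference was 0.495. Marker sums of neurons ran from 2318 to 2622 FPKM in winter and 2226 to 2528 in summer. The 5 endothelial markers summed to 51.1 to 63.7 FPKM in winter and 59.4 to 69.6 in summer, with 1 of 5 positive and Cldn5 at -0.44 in log2. Other marker sums differed without overlap in males, where Dbp differed most. The 5 mural and meningeal markers, all of them negative in males and 4 with an unadjusted limma p under 0.05, summed to 14.4 to 15.2 FPKM in male winter and 17.1 to 18.6 in male summer. Those of oligodendrocyte precursors summed to 21.8 to 26.6 FPKM in male winter and 27.9 to 31.2 in male summer, with 1 of 5 positive. Those of hypothalamic neurons summed to 118.1 to 131.5 FPKM in male winter and 106.9 to 109.4 in male summer, with 3 of 5 positive. In females the seasons of these 3 sums overlapped, none of these markers was called or read 0 in a library, and their part in the member values was not tested. The 5 choroid plexus markers summed to 268.8 to 375.0 FPKM in male winter and 370.1 to 410.3 in male summer, with 1 of 5 positive. In females 5 of 5 were positive. These sums overlapped between seasons in each sex, 0 of the 5 were called, and their part in the member values was not tested. In this tissue, fewer cells of a type and less RNA per cell cannot be told apart.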

How the data were processed

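Poly-A RNA was sequenced as paired-end strand-specific libraries, per the labels' protocols. The submitters' processing notes name HISAT, RSEM and the build GRCm38.p6, with no tool version in any source used here. The authors deposited FPKM values of 18962 genes in 12 libraries; low values were whole multiples of a gene's lowest in 5.7% of 17938 cases against 4.8% by chance, so reads could not be recovered and depth is unknown. Since FPKM is a share of its own library, differences are relative to the other genes there.

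Values were taken as log2(FPKM + 1), and the 13071 genes reaching 1 FPKM in 3 or more libraries were tested, all 6 members among them. Contrasts came from a single limma fit of the 4 groups (8 residual degrees of freedom), two-sided, with trended variances and Benjamini-Hochberg adjustment at 0.05. The model was run on simulated data with independent normal noise for each gene. That noise held no trend shared across a library, so the run cannot speak for p-values where such trends exist. Single members were also tested by exact permutation within each sex, and correlations by 100000 permutations. Those for correlations shuffled the 12 libraries freely and not within groups, so p-values for deviations from group means are too small. R 4.3.3, limma 3.58.1, Python 3.11.15, numpy 2.4.6, scipy 1.17.1, pandas 2.3.3 and matplotlib 3.10.9 were used. Alternatives changed the pseudocount, the low-value filter, the scaling (3 ways), the prior variance, the sample weights and the libraries included, or added a replicate block. Members and lists were chosen with earlier results of these data known. The members are always named, with 15 clock and activity genes, the 2 smallest p-values of every other pathway list, and the 5 genes most like each member; some genes under this rule are not reported here. Protein sequences were not used here.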

Additional observations from a re-analysis of the deposited data

How the results depend on the processing

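Of 672 member values under an alternative, 654 kept their direction and side of the threshold, 15 reversed and 3 became called. The 3 were Dbp, over both sexes at 0.507 with gene-by-gene sample weights (adjusted limma p 0.0267) and at 0.591 without male summer replicate 1, and in males at 0.868 without that library. Over the 12 fits leaving out 1 library, Dbp ran from 0.432 to 0.591 over both sexes (adjusted p 0.00129 to 0.856) and from 0.549 to 0.868 in males. In those fits Bhlhe40 in females ran from -0.056 to 0.137, the interaction of Tef from -0.048 to 0.057, that of Bhlhe41 from -0.134 to 0.01, and the sex difference of Dbp from -0.1 to 0.059. The interaction of Tef (-0.002) also reversed to 0.002 with median centring, 0.035 with quantile normalization and 0.084 with sample weights. It was 0.043 without both libraries of the strongest GC trend. The interaction of Nfil3 (0.181) reversed to -0.043 with sample weights and -0.028 without those libraries, where the sex difference of Bhlhe41 was -0.014. None of these reversed values was called, and the causes were not tested. Counts of called genes moved from 1 to 3 over both sexes and from 0 to 1 in females with sample weights, and for sex from 8 to 3 with a filter of 1 FPKM in 12 libraries and to 218 with weights. Leaving out 1 library gave 1 to 3 over both sexes (2 without male winter replicate 2, 3 without male summer replicate 1), 1 to 3 in males, 0 to 1 in females (1 without female summer replicate 2) and 8 to 136 for sex (136 without female summer replicate 1). The log2 ratio of Dbp to Nfil3 ran from 0.602 to 0.982. The replicate numbers were not taken as pairs, since over all tested genes deviations of same-numbered libraries correlated at -0.229 to 0.242. Single genes could still follow the number: Bhlhe40, Per2 and Arc were lowest in replicate 1 in 4 of 4 groups, and the immediate early gene mean in 3 of 4. The share of all tested genes with that pattern was not counted. With a replicate block Dbp was 0.5 with an adjusted limma p of 0.386, and the block changed no call of the 6. With the replicate block also in the within-group correlations, chosen after seeing the data, r was -0.78 for Dbp with Nfil3, 0.82 for Nfil3 with immediate early genes and 0.71 for Bhlhe40 with them. The scalings moved the median of all genes by less than 0.1. With read depth unknown no counting error can be given, and 3 libraries a group limit tests within 1 sex.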

Other observations

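The authors' annotation lists 55 genes under rhythmic process, 47 of them tested, and 5 of the 6 members (not Bhlhe40) are among them. For season over both sexes 0 of the 47 were called by limma, and 9 (19.1%) had an unadjusted p under 0.05, against 4.88% of all tested genes. Without the members it was 6 of 42 (14.3%). Beside Ciart and Per3, these were Usp2 at 0.26 ± 0.079 (SE) in log2, a deubiquitinase, Cipc at 0.10, a partner of CLOCK, Klf9 at 0.16, a transcription factor, and Nfya at -0.14, a subunit of NF-Y. Their adjusted limma p-values were 0.997, save 0.280 for Ciart, and these genes were named after their values were seen. In females the share without the members was 4.76%, against 1.74% of all tested genes, and in males it was 11.9%, against 5.01%.

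Of the marker lists, Gpr17, a receptor of maturing oligodendrocyte precursors, had -0.38 ± 0.072 (SE) in log2 and an adjusted limma p of 0.295. The other 4 precursor markers had 0.03 (Pdgfra), 0.08 (Cspg4), 0.02 (Neu4) and -0.09 (Bmp4), with a list median of 0.02. Avp, the peptide vasopressin, had 0.46 ± 0.093 (SE) and an adjusted limma p of 0.407. The other 4 hypothalamic markers had -0.02 (Vip), 0.02 (Hcrt), 0.20 (Oxt) and -0.02 (Pmch), with a list median of 0.02. Gpr17 and Avp were named after their values were seen.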
